A study of Rattus norvegicus with 12 samples.

Results

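The genes described here encode proteins that carry fatty acids in the cell, move them across its membrane or release them from lipoproteins. They are Fabp1, Fabp2, Fabp4, Fabp5, Fabp7, Cd36, Slc27a2, Slc27a5, Dbi and Lpl. The 10 genes were picked by name because Fabp2 was low in livers of newborn rats whose dams ate a low protein diet, so its fall is a description here and not a finding. Of the 10 genes, 8 had a probe on the array, with 1 probe each, among 22505 probes that cover 13327 named genes. Fabp5 and Slc27a2 had no probe listed under their symbols and their expression was not analysed here.

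Gene expression was measured with the Illumina RatRef-12 Expression BeadChip, a 1-colour bead array, in individual livers of 12 male Wistar rats on postnatal day 1 (P1), 4 in each of 3 groups. MLP-F pups were born to dams fed a maternal low protein diet supplemented with folic acid, MLP pups to dams on the low protein diet without the supplement, and C pups to dams on the control casein diet. The dams ate these synthetic diets from the start of pregnancy until delivery, and a group with the control protein level and extra folic acid was not part of the study. According to the study's methods each group was a single litter, so diet and litter cannot be told apart and each p-value measures the spread among littermates.

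Long-chain fatty acids are poorly soluble in water, and cells handle them with a chain of proteins. Lipoprotein lipase frees them from circulating triglyceride, CD36 and the fatty acid transport proteins (the Slc27 family) bring them in or couple them to coenzyme A, and the cytosolic fatty acid binding proteins (the Fabp family) and acyl-CoA binding protein (Dbi) ferry them onwards. In the newborn, milk fat becomes a main fuel and the liver takes up and oxidises large amounts of fatty acid. Several of these genes are known targets of the nuclear receptor PPAR-alpha, which binds a direct repeat of the half-site AGGTCA with a spacer of 1 base.

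Promoter sequence shows which of these genes carry letters close to that repeat near their start. The window from 250 bases before to 50 bases after each gene start was read from RefSeq, build GRCr8, and held an entry for 7 of the 10 genes. It was searched on both strands for this repeat, AGGTCA then any base (N) then AGGTCA, with up to 2 mismatches over its 12 fixed letters, a motif chosen after the sequences had been seen. Such a match was present in 3 of the 7 windows, against 3.774% of all 33469 promoter windows of 300 bases. The 3 sites are printed on the strand of the gene, 5′ to 3′, with the match in capitals. It reads as the reverse complement of the motif in each.
Fabp1: acaatcacTGACCTATGGCCTatatttgag
Fabp2: ttatctctTGAACTTTGAACTtccacatca
Slc27a2: tgaagaaaTGACCTTTGAGATatgccatca

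The Fabp1 site (chr4:104749255-104749284, plus strand) had 1 mismatch and its match lay 77 to 65 bases before the start. A match with at most 1 mismatch was present in 0.439% of all windows. The Fabp2 site (chr2:213724515-213724544, plus strand) had 2 mismatches and lay 106 to 94 bases before the start. The Slc27a2 site (chr3:134258017-134258046, plus strand) had 2 mismatches and lay 76 to 64 bases before the start. The windows of Fabp7, Cd36, Slc27a5 and Dbi held no match within 2 mismatches. A match describes letters only, and binding of a factor was not measured.

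All levels are on the re-expanded log2 scale, on which the deposited value v becomes 2 to the power v minus 16. That the values were built in this way is inferred from their range and is stated in no source. If it holds, a difference is close to a log2 ratio of intensity, although changes of dim probes come out too small on it. Levels of different probes are not set against each other. Littermates correlated across probes with r of 0.977 to 0.993. The summed level of 8 hepatocyte marker probes was 52.27 to 54.05 in MLP-F, 54.86 to 55.7 in MLP and 52.81 to 55.28 in C. Transcripts of other tissues stood out in a pair of C livers. The sum of 7 skeletal muscle probes was 24.75 and that of 6 lung probes 12.54 in C replicate 4, against at most 2.08 and 1.40 in the other 11 livers. The sum of 4 epidermis probes was 10.16 in C replicate 1, against at most 0.84 in the others. Stellate cell and fibroblast markers, 8 probes, summed to 34.11 in C replicate 1 and 20.9 in C replicate 4, against at most 17.63 in the other livers. Differences of the 8 genes against C, and those of the pathway genes that were called, are therefore also given without C replicates 1 and 4.

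Fabp2, the intestinal-type fatty acid binding protein, was the gene the choice rested on (probe ILMN_1373706, chromosome 2). Its level was 3.29, 4.52, 2.91 and 2.95 in the 4 MLP-F livers, 1.64, 1.91, 1.63 and 1.78 in the MLP livers, and 3.36, 3.37, 3.43 and 2.84 in the C livers. All 4 MLP livers lay below all 8 others, and the MLP-F and C livers overlapped. The group means were 3.42 ± 0.75 in MLP-F, 1.74 ± 0.13 in MLP and 3.25 ± 0.27 in C (SD, n = 4 each).

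The difference of Fabp2 between MLP and C was -1.51 (SE 0.30), which would be a ratio of 0.351 if the inferred scale holds. Between MLP-F and MLP it was 1.68 (SE 0.30), a ratio of 3.20, and this too is a description, because the MLP livers that led to the choice are in it. Without C replicates 1 and 4 the difference between MLP and C was -1.66 (SE 0.38) and was no longer past the threshold, as was also the case without MLP replicate 3 (-1.47). It stayed past the threshold in 11 of the 12 fits that left out 1 liver and in a fit of MLP and C alone (SE 0.13). With each of the 12 livers left out in turn the difference between MLP-F and MLP stayed between 1.31 and 1.85.

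Between MLP-F and C, a comparison that shares the C livers with the choice, Fabp2 did not pass the test. The difference was 0.17 with a 95% interval of -0.49 to 0.82 (limma, adjusted p = 0.848). MLP-F replicate 2, at 4.52, stood above every other liver. Without that liver the difference was -0.20 (SE 0.15, adjusted p = 0.517), and without C replicates 1 and 4 it was 0.019 (SE 0.38).

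Fabp2 is best known from the enterocyte, so markers of that cell were read in the same livers. Of 10 enterocyte genes 6 had a probe, and their summed level was 2.198 to 3.12 in MLP-F, 2.298 to 3.27 in MLP and 1.67 to 2.41 in C. Vil1, Alpi, Lct, Cdh17 and Slc5a1 were at most 0.67 in all 12 livers, near the bottom of the scale. Krt20 was 1.02 to 1.84 in MLP-F, 1.23 to 1.92 in MLP and 0.67 to 1.40 in C, and the part of these markers in the Fabp2 values was not tested. In whole liver, fewer cells of a type and less RNA per cell cannot be told apart.

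**Figure D1:**
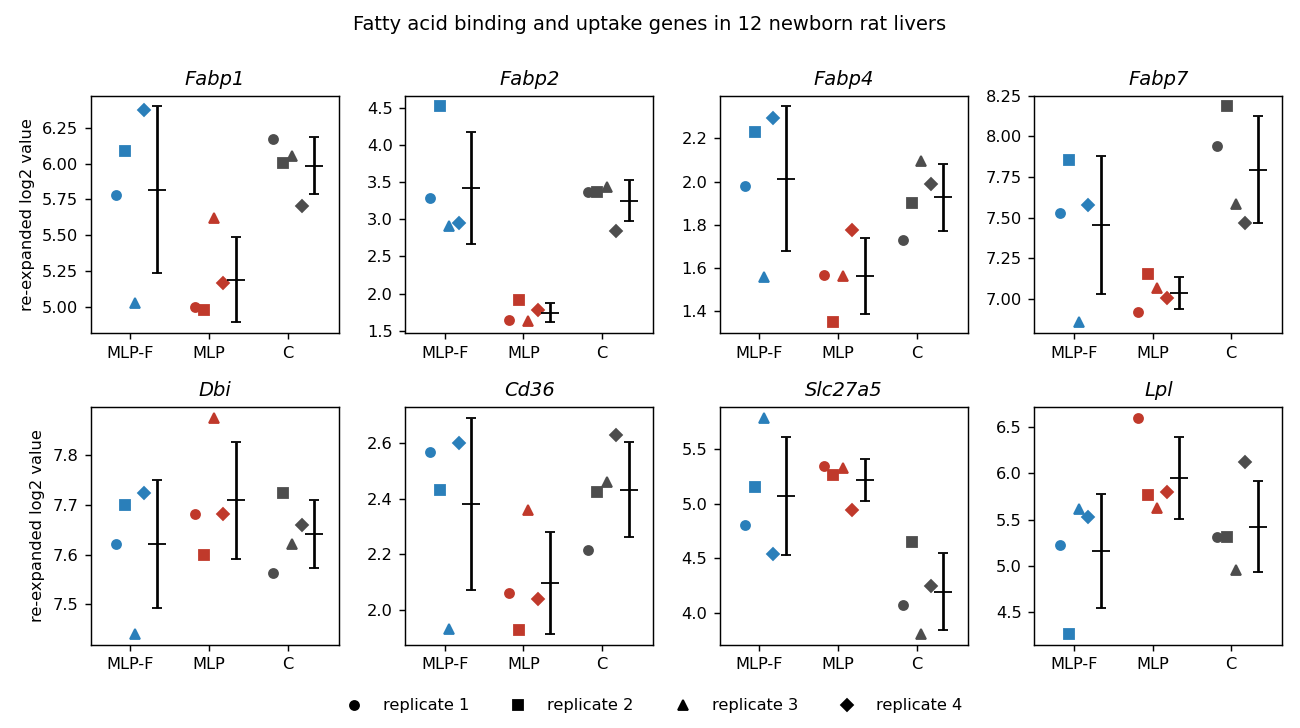
Level of each of the 8 genes in each liver (y axis, re-expanded log2 value, with its own range per gene), by group, with replicates 1 to 4 as different symbols and the mean with its SD as a bar (n = 4 per group). The 4 MLP livers lie below all others for Fabp2, at 1.63 to 1.91, and the MLP-F bar is the longest of the 3 groups for all 8 genes.

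None of the other intracellular binding proteins passed the threshold in MLP vs C. Fabp1, the liver-type binding protein (ILMN_1374405, chromosome 4), had levels of 5.78, 6.09, 5.03 and 6.38 in MLP-F, 4.997, 4.98, 5.62 and 5.17 in MLP, and 6.17, 6.00, 6.06 and 5.71 in C. The MLP livers lay below the C livers without overlap, while the MLP-F livers spanned both. The difference between MLP and C was -0.79 (SE 0.25), short of the threshold. MLP-F exceeded MLP by 0.63 (95% interval 0.077 to 1.18), which did not pass after adjustment (limma, adjusted p = 0.184), and differed from C by -0.17 (-0.72 to 0.38, adjusted p = 0.814). The difference was -0.21 between MLP-F and C and -0.84 between MLP and C with C replicates 1 and 4 left out (SE 0.32 for both).

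Fabp7, the brain-type binding protein (ILMN_1361259, chromosome 20), had levels of 7.53, 7.86, 6.86 and 7.58 in MLP-F, 6.92, 7.15, 7.07 and 7.003 in MLP, and 7.94, 8.18, 7.59 and 7.47 in C. As for Fabp1, the MLP livers were all below the C livers and the MLP-F livers spanned both ranges. The difference between MLP and C was -0.76 (SE 0.20), short of the threshold over all 12 livers. MLP-F lay 0.42 above MLP (95% interval -0.023 to 0.86, limma, adjusted p = 0.288) and differed from C by -0.34 (-0.78 to 0.10, adjusted p = 0.472). The difference was -0.43 between MLP-F and C and -0.85 between MLP and C with C replicates 1 and 4 left out (SE 0.25 for both). Markers of glia, which are known to express Fabp7, had a summed level over 6 probes of 2.68 to 3.35 in MLP-F, 2.86 to 3.54 in MLP and 1.87 to 3.47 in C. Gfap was 1.71 to 2.26 in MLP-F, 1.84 to 2.54 in MLP and 0.85 to 2.07 in C. Slc1a3 leaned the other way, at 0.20 to 0.61 in MLP-F, 0.10 to 0.25 in MLP and 0.19 to 0.82 in C, with overlap. S100b and Aqp4 were at most 0.27, and Mbp and Nes at most 0.43, in any liver. Of the 5 glia probes that passed the filter, in MLP vs C 3 passed at an unadjusted p under 0.05 and 0 were called. The part of these markers in the Fabp7 values was not tested.

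Fabp4, the adipocyte-type binding protein (ILMN_1376344, chromosome 2), ranged from 1.55 to 2.29 in MLP-F, 1.35 to 1.78 in MLP and 1.73 to 2.10 in C. All pairs of groups overlapped. The difference between MLP and C was -0.36 (SE 0.15), that between MLP-F and MLP 0.45 (95% interval 0.12 to 0.78, limma, adjusted p = 0.111), and that between MLP-F and C 0.087 (-0.25 to 0.42, adjusted p = 0.845). The difference was 0.017 between MLP-F and C and -0.43 between MLP and C with C replicates 1 and 4 left out (SE 0.19 for both). Of the adipocyte markers, the summed level of 6 probes was 6.55 to 8.91 in MLP-F, 8.34 to 9.35 in MLP and 6.22 to 7.81 in C. Adipoq was at most 0.49 and Lep at most 0.14 in any liver, while Cfd was 3.87 to 5.57 in MLP-F, 4.78 to 5.62 in MLP and 3.88 to 5.16 in C. Cidec was 1.258 to 2.349 in MLP-F, 2.166 to 2.716 in MLP and 1.345 to 1.605 in C. Of the 5 adipocyte probes that passed the filter, limma called 1 in MLP vs C, which was higher, and 0 in MLP-F vs MLP. The part of these markers in the Fabp4 values was not tested.

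Dbi, the acyl-CoA binding protein (ILMN_1354106, chromosome 13), had close levels in the 3 groups. It ranged from 7.44 to 7.73 in MLP-F, 7.60 to 7.88 in MLP and 7.56 to 7.73 in C. The intervals of its differences, -0.25 to 0.073 between MLP-F and MLP and -0.18 to 0.14 between MLP-F and C, were the narrowest of the 8 genes (limma, adjusted p = 0.61 and 0.932). MLP differed from C by 0.067 (SE 0.073). The difference was -0.051 between MLP-F and C and 0.036 between MLP and C with C replicates 1 and 4 left out (SE 0.095 for both).

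Cd36, the membrane receptor for long-chain fatty acids (ILMN_1361328, chromosome 4), was 1.93 to 2.599 in MLP-F, 1.93 to 2.36 in MLP and 2.22 to 2.63 in C. All pairs of groups overlapped. MLP differed from C by -0.33 (SE 0.15). MLP-F lay 0.28 above MLP (95% interval -0.040 to 0.61, limma, adjusted p = 0.337) and differed from C by -0.051 (-0.38 to 0.27, adjusted p = 0.912). The difference was -0.061 between MLP-F and C and -0.34 between MLP and C with C replicates 1 and 4 left out (SE 0.18 for both). Endothelial cells and macrophages are both known to carry Cd36. Endothelial markers summed over 7 probes to 9.87 to 11.36 in MLP-F, 10.2 to 11.83 in MLP and 9.80 to 10.76 in C. Macrophage markers, also 7 probes, summed to 12.59 to 14.7 in MLP-F, 13.13 to 16.33 in MLP and 12.6 to 13.41 in C. In MLP vs C limma called 1 macrophage probe, which was higher, and 4 of the 7 passed at an unadjusted p under 0.05. It called 0 endothelial probes in that contrast. In MLP-F vs MLP it called 2 macrophage probes, both lower, and 2 endothelial probes, 1 higher and 1 lower. The part of these markers in the Cd36 values was not tested.

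Slc27a5, the bile acid and fatty acid acyl-CoA ligase of the liver (ILMN_1350483, chromosome 1), ran the other way. Its level was 4.80, 5.15, 5.79 and 4.54 in MLP-F, 5.34, 5.26, 5.33 and 4.94 in MLP, and 4.07, 4.65, 3.81 and 4.25 in C. The MLP livers lay above the C livers without overlap, and in MLP-F all but replicate 4 were above every C liver. The difference between MLP and C was 1.02 (SE 0.25). Although limma called it, the call was lost in 8 of the 12 fits that left out 1 liver. Without C replicates 1 and 4 it was 0.99 (SE 0.33), also not called.

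For Slc27a5 the MLP-F mean was nearer to MLP than to C. The difference between MLP-F and MLP was -0.15 with an interval of -0.69 to 0.40 (limma, adjusted p = 0.838). Between MLP-F and C it was 0.88 with an interval of 0.34 to 1.42, which passed at an unadjusted p of 0.00439 and not after adjustment over 15753 probes (adjusted p = 0.126). Without C replicates 1 and 4 it was 0.84 (SE 0.33, adjusted p = 0.49).

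Lpl, lipoprotein lipase (ILMN_1357053, chromosome 16), is known to be made by the liver around birth and to be switched off there later. Its level was 5.22, 4.27, 5.61 and 5.53 in MLP-F, 6.60, 5.77, 5.63 and 5.79 in MLP, and 5.31, 5.31, 4.96 and 6.12 in C. The MLP-F livers lay below the MLP livers without overlap, though MLP-F replicate 3 and MLP replicate 3 nearly met. The difference between MLP-F and MLP was -0.79 (95% interval -1.52 to -0.062, limma, adjusted p = 0.21). MLP-F differed from C by -0.27 (-0.997 to 0.46, adjusted p = 0.763), and MLP from C by 0.52 (SE 0.33). The highest C liver, replicate 4, was the one with muscle transcripts, a tissue known to express Lpl. Without C replicates 1 and 4 the difference was 0.024 between MLP-F and C and 0.81 between MLP and C (SE 0.38 for both), and the part of the muscle transcripts in the full values was not tested.

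**Figure D2:**
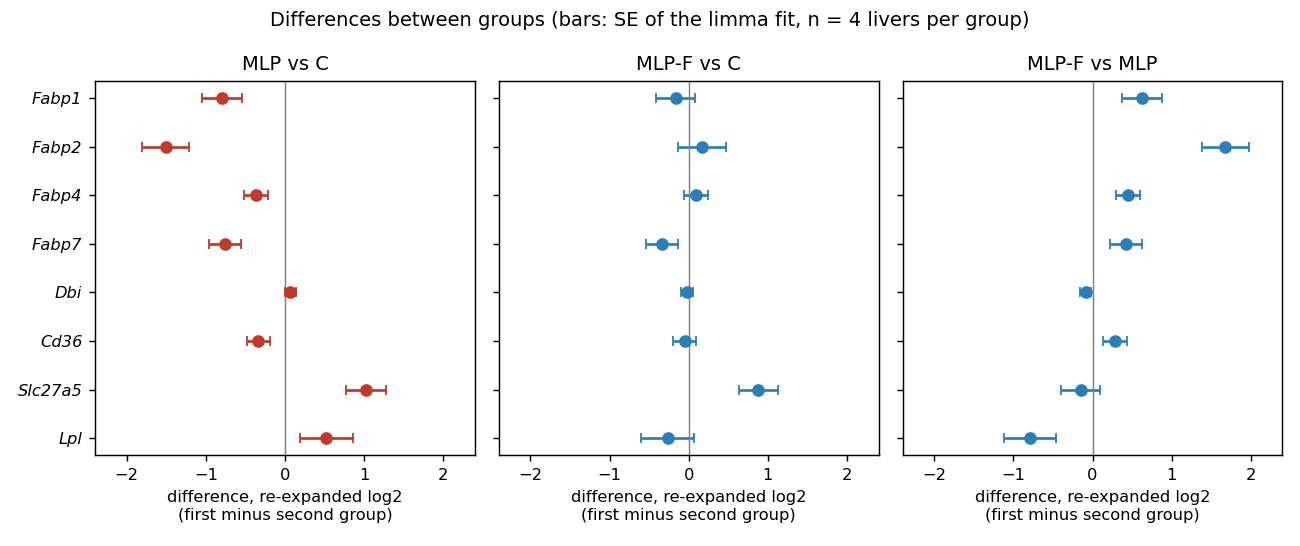
Difference between groups for each gene (x axis, re-expanded log2, first group minus second), in a panel each for MLP vs C (left), MLP-F vs C (middle) and MLP-F vs MLP (right), with the SE of the limma fit as a bar (n = 4 livers per group). Fabp2 lies at -1.51, 0.17 and 1.68 in the 3 panels, and Slc27a5 at 1.02, 0.88 and -0.15.

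Counted over the 8 genes, limma called 2 in MLP vs C (Fabp2 lower, Slc27a5 higher), against 4.35% of all 15753 probes tested. The genes were chosen with this contrast known, so nothing is read from that count. In MLP-F vs C it called 0 of 8, against 0.482% of all probes, with 1 gene (Slc27a5) at an unadjusted p under 0.05, against 14.9%. The share over all probes rested on single livers in this contrast, since 76 probes were called with all livers, 1 without MLP-F replicate 3 and 940 without MLP-F replicate 2. In MLP-F vs MLP it called 1 of 8 (Fabp2, a description), against 6.58%, and 4 (Fabp1, Fabp2, Fabp4 and Lpl) at an unadjusted p under 0.05, against 19.5%.

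The livers of the groups did not overlap for 4 genes in MLP vs C. MLP was lower for Fabp1, Fabp2 and Fabp7, against 6.06% of all probes, and higher for Slc27a5, against 6.18%, and nothing is read from this contrast either. They did not overlap for 0 genes in MLP-F vs C, against 6.27%, and for 2 in MLP-F vs MLP, where MLP-F was higher for Fabp2, against 5.99%, and lower for Lpl, against 6.0%. The median difference of the 8 genes was -0.35 in MLP vs C, 0.35 in MLP-F vs MLP and -0.036 in MLP-F vs C, beside medians over all probes of 0.0037, 0.0012 and 0.0044. The first pair of contrasts share the MLP livers, so their opposite signs are in part built in.

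The MLP-F litter was uneven for these genes. Its SD was the largest of the 3 groups for all 8 genes, such as 0.58 for Fabp1, against 0.30 in MLP and 0.20 in C. The same held for genes outside the 8, such as Got2 (0.188, against 0.018 in MLP and 0.077 in C). It did not hold for others, such as Rbp2 (0.22, against 0.30 in MLP and 0.43 in C). Shares over all probes were not computed for this count or for those of single livers below, so none is read as particular to these genes. MLP-F replicate 3 was the lowest of its group for 6 genes and the highest for the other 2, Slc27a5 and Lpl. It was nearer to the MLP mean than to the C mean for 5 genes (Fabp1, Fabp4, Fabp7, Cd36 and Slc27a5), whereas replicates 1 and 4 were each nearer to the C mean for 7 genes and replicate 2 for 6. For Fabp2 all 4 MLP-F livers were nearer to the C mean. The sum of erythroid markers, from the blood-forming cells that the newborn liver still holds, moved with this pattern. Over 8 probes it was 31.29, 31.98, 29.47 and 31.78 in MLP-F, 28.95 to 30.68 in MLP and 31.07 to 32.3 in C, so that the 4 MLP livers and MLP-F replicate 3 lay below all others. The median of the same probes overlapped between all groups (2.37 to 2.77, 2.52 to 2.82 and 2.74 to 2.98). Single markers differed in direction. Car2 was 5.02 to 5.555 in MLP and 5.92 to 5.97 in C, whereas Alas2 was 0.87 to 1.09 in MLP and 0.59 to 0.65 in C. Limma called 3 of the 8 erythroid probes lower and 1 higher in MLP vs C, and 1 lower and 2 higher in MLP-F vs MLP. Their part in the values of the 8 genes was not tested.

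Calls for Fabp1, Fabp4, Fabp7 and Cd36 turned on that liver, which was singled out after its values had been seen. Without MLP-F replicate 3, limma called 941 of all 15753 probes in MLP-F vs MLP, and 5 of the 8 genes, all higher in MLP-F. These were Fabp2, Fabp1 (0.89, SE 0.18, adjusted p = 0.0193), Fabp4 (0.61, SE 0.12, adjusted p = 0.0152), Fabp7 (0.62, SE 0.16, adjusted p = 0.0463) and Cd36 (0.43, SE 0.11, adjusted p = 0.0491). The other 11 fits that left out 1 liver called 1 gene in this contrast, Fabp2.

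**Figure D3:**
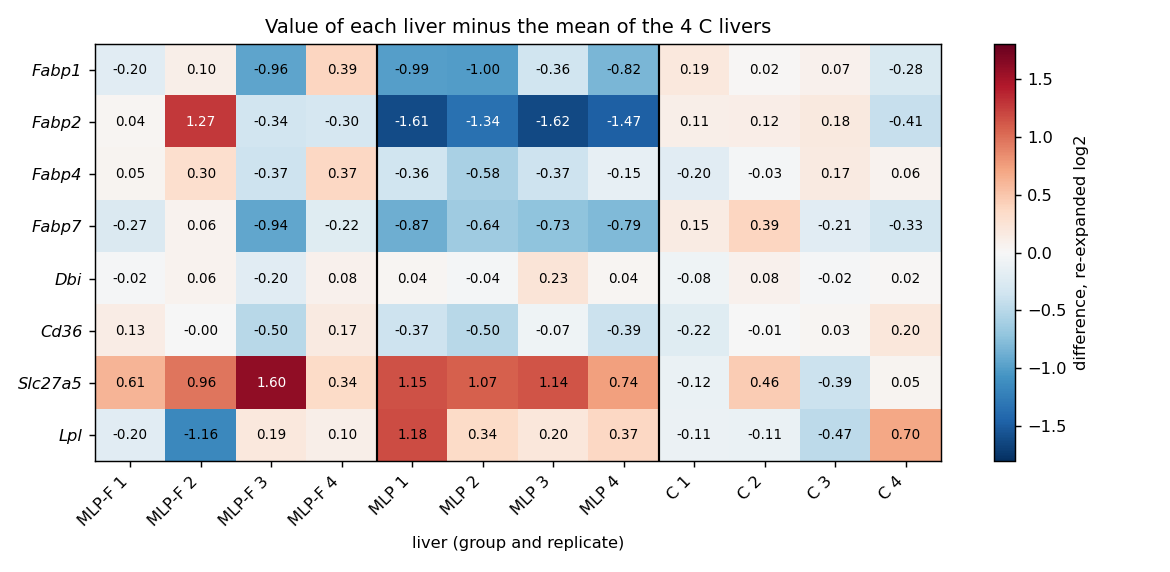
Value of each of the 12 livers (columns, by group and replicate) minus the mean of the 4 C livers for each gene (rows), in re-expanded log2 units, with red above and blue below the C mean. MLP-F replicate 3 is blue for Fabp1, Fabp4, Fabp7 and Cd36 like most MLP livers, and all MLP-F livers are above the C mean for Slc27a5.

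The rest of the pathway was read from 7 lists with 74 further genes, of which 60 had a probe and 57 probes passed the filter on low mean level. Limma called 7 of the 57 probes in MLP vs C (6 higher and 1 lower, 12.3%), 1 in MLP-F vs C (lower, 1.75%) and 6 in MLP-F vs MLP (all lower, 10.5%), against the shares of all probes given above. The lists were chosen with earlier results of these data known, so nothing is read from these counts or from those of single lists below. The median difference of each list lay between -0.31 and 0.18 in every contrast.

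Among 8 other intracellular lipid-binding proteins, limma called Rbp2, a retinol-binding protein of the same family as the Fabps that is best known from the intestine. Its level was 2.29, 2.47, 2.09 and 1.96 in MLP-F, 4.08, 3.39, 3.89 and 3.92 in MLP, and 1.72, 2.75, 2.25 and 2.04 in C. The MLP livers were all above the others, the reverse of Fabp2. The difference was 1.63 (SE 0.21) between MLP and C, -1.62 between MLP-F and MLP (SE 0.21, limma, adjusted p = 0.00198) and 0.01 between MLP-F and C (SE 0.21, adjusted p = 0.984). MLP exceeded C by 1.32 (SE 0.21), still called, without C replicates 1 and 4. The other 7 probes were not called in any contrast, among them Fabp3, the heart-type protein (-0.51 between MLP and C, SE 0.25), and Fabp12 (-0.52 between MLP-F and MLP, SE 0.16, adjusted p = 0.0774).

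Of 13 probes of other transporters and acyl-CoA synthetases, limma called Got2, the mitochondrial aspartate aminotransferase that also serves as a plasma membrane fatty acid binding protein. It was 3.92 to 4.31 in MLP-F, 4.53 to 4.57 in MLP and 4.10 to 4.28 in C. The difference was 0.37 (SE 0.08) between MLP and C and -0.45 between MLP-F and MLP (SE 0.08, limma, adjusted p = 0.0081). The first call was lost in 6 of the 12 fits that left out 1 liver and without C replicates 1 and 4 (0.34, SE 0.10), and the second in 0 of the 12. Acsl1, a major acyl-CoA synthetase of the liver, did not overlap between MLP-F and MLP and missed the threshold (-0.53, SE 0.15, adjusted p = 0.0629).

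Among 4 probes of acyl-CoA and sterol carriers, Scp2, sterol carrier protein, was called lower in MLP than in C (-0.47, SE 0.11), and its levels were 3.97 to 4.636 in MLP-F, 4.06 to 4.15 in MLP and 4.46 to 4.67 in C. This call was lost in 10 of the 12 fits that left out 1 liver and without C replicates 1 and 4 (-0.55, SE 0.15). The lipases and their regulators (6 probes) and the transcription factors of fatty acid genes (8 probes) had 0 calls by limma in each contrast. At an unadjusted p under 0.05 the lipases had 0 in each, and the factors 1 in MLP vs C, 0 in MLP-F vs C and 1 in MLP-F vs MLP. The probe behind both was Foxa2, a liver forkhead factor (-0.47 between MLP and C, SE 0.13, and 0.34 between MLP-F and MLP, SE 0.13, adjusted p = 0.156). Ppara itself, which encodes PPAR-alpha, differed by 0.40 between MLP and C (SE 0.29), 0.03 between MLP-F and C (adjusted p = 0.981) and -0.38 between MLP-F and MLP (adjusted p = 0.567).

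Of 12 probes of known PPAR-alpha targets, 10 were lower and 2 higher in MLP-F than in MLP, with a median difference of -0.31. Limma called 2 of them, each lower in MLP-F. At an unadjusted p under 0.05 6 passed, with the 2 higher probes among these 6. The 2 higher ones were Fgf21, a hormone of the fasting liver (0.92, SE 0.38, limma, adjusted p = 0.202), and Acadm, the medium-chain acyl-CoA dehydrogenase (0.27, SE 0.11, adjusted p = 0.198), named after their values were seen. In MLP vs C, Cpt2, the inner carnitine palmitoyltransferase, was called higher by 0.60 (SE 0.11) and Acaa1a, the peroxisomal thiolase, by 0.50 (SE 0.10). Neither was called without C replicates 1 and 4 (0.65, SE 0.14, and 0.43, SE 0.13), and the Acaa1a call was also lost in 4 of the 12 fits without 1 liver. Cpt2 was 5.15 to 5.59 in MLP-F, 5.30 to 5.69 in MLP and 4.84 to 5.05 in C, so that all MLP-F livers were above C too, by a difference that was not called (0.34, SE 0.11, limma, adjusted p = 0.165). Cyp4a1, a fatty acid hydroxylase, was called lower in MLP-F by 1 of its 2 probes, by -0.68 against MLP (SE 0.11, adjusted p = 0.0047) and -0.58 against C (SE 0.11, adjusted p = 0.0469). The call against C was lost in 10 of the 12 fits without 1 liver, though without C replicates 1 and 4 it was kept (-0.72, SE 0.072, adjusted p = 0.0133). Creb3l3, a liver transcription factor, differed by -0.66 between MLP-F and MLP (SE 0.15, adjusted p = 0.0213), a call lost in 4 of the 12 fits without 1 liver.

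In triglyceride and lipoprotein assembly (6 probes) limma called Dgat1, which makes triglyceride, and Plin5, a lipid droplet coat protein. Dgat1 was 3.07, 3.31, 3.27 and 2.92 in MLP-F, 4.02, 4.28, 4.06 and 4.10 in MLP, and 3.11, 3.54, 3.22 and 3.48 in C. Its difference was 0.78 (SE 0.11) between MLP and C and -0.98 between MLP-F and MLP (SE 0.11, limma, adjusted p = 0.000915). Plin5 was 0.11 to 0.63 in MLP-F, 1.05 to 1.61 in MLP and 0.18 to 0.62 in C, with differences of 0.92 (SE 0.14) between MLP and C and -1.01 between MLP-F and MLP (SE 0.14, adjusted p = 0.00261). In both genes every MLP liver was above all 8 others. Both were still called between MLP and C without C replicates 1 and 4 (0.74, SE 0.13, for Dgat1 and 1.02, SE 0.18, for Plin5).

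**Figure D4:**
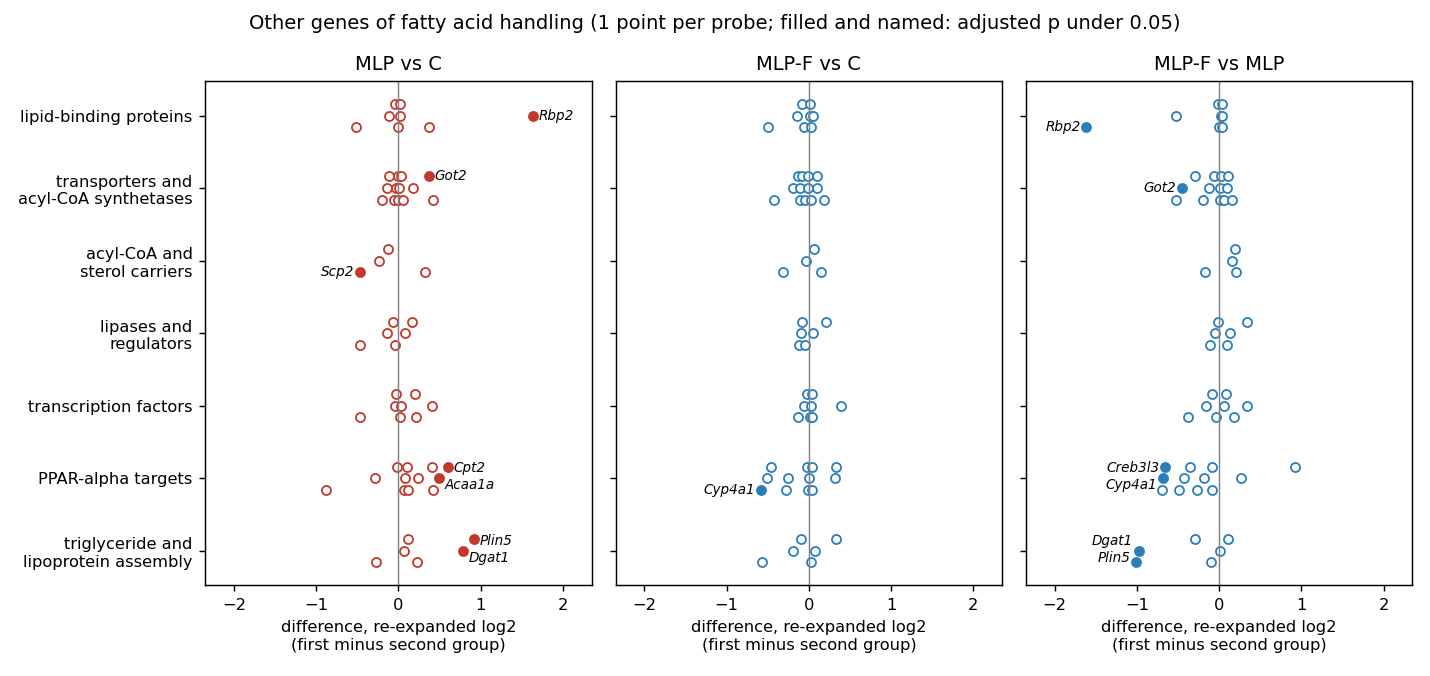
Differences of 57 probes of other fatty acid genes (x axis, re-expanded log2, first group minus second) by list (rows), in a panel each for MLP vs C (left), MLP-F vs C (middle) and MLP-F vs MLP (right), with 1 point per probe, filled and named where the limma adjusted p was under 0.05. Rbp2, Got2, Dgat1 and Plin5 lie right of 0 in MLP vs C and left of 0 in MLP-F vs MLP, and the only filled point in MLP-F vs C is Cyp4a1.

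The 5 genes whose levels followed Fabp2 most closely over the 12 livers, among 10544 kept probes with a symbol, were Slfn9, Parp2, Ddah1, Ttk and Fads1. Pearson's r was 0.936 for Slfn9, a Schlafen family gene, 0.93 for Parp2, a poly(ADP-ribose) polymerase, 0.924 for Ddah1, which degrades asymmetric dimethylarginine, 0.924 for Ttk, a mitotic checkpoint kinase, and 0.923 for Fads1, a fatty acid desaturase. The livers share group and litter, and each of the 5 was lower in every MLP liver than in any other liver. That follows in part from picking them by r over the same livers. With the group means taken out r was 0.808, 0.761, 0.656, 0.751 and 0.59 in the same order. These values too follow in part from the picking. They include MLP-F replicate 2, whose Fabp2 level of 4.52 lay farthest from its group mean. Fads1 was 3.08 to 3.40 in MLP-F, 2.34 to 2.57 in MLP and 2.99 to 3.29 in C. Slfn9 was near the bottom of the scale, at 0.165 to 0.301 in MLP-F, 0.113 to 0.148 in MLP and 0.183 to 0.246 in C.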

How the data were processed

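The authors hybridised liver RNA of single pups to bead arrays. Per the study's methods they processed the arrays with beadarray and limma and applied quantile normalization, with versions that are not given in the sources used here. What was deposited is a table of log2 values for 22505 probes, from 4.004 to 4.633. Each value v became 2 to the power v less 16, a reading inferred from the values. A second deposited table has 12 columns named by chip and position, which match no label, and was not used. Symbols came from the platform annotation, updated through Entrez identifiers with RefSeq GRCr8. Of all probes, 13778 had 1 symbol, 0 several and 8727 none, and 40 identifiers were not found.

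Probes with a mean over the 12 livers above the 30th percentile were kept (15753, all 8 members among them). One model covered all 12 livers (lmFit, contrasts.fit and eBayes of limma 3.58.1, run under R 4.3.3). Its degrees of freedom were 9 residual and 2.26 from the prior. The contrasts set MLP and MLP-F against C and MLP-F against MLP, two-sided, with Benjamini-Hochberg adjustment over 15753 probes and a threshold of 0.05. The fit was run on simulated data with independent noise and known shifts in MLP, which cannot test the single-litter design or the inferred scale. The precision is limited by 4 arrays per group. For the members MLP vs C, and Fabp2 in MLP-F vs MLP, are given without p. Members, lists and markers were chosen with earlier results of these data known. Named pathway genes were up to 3 probes per list and contrast with the smallest p, and genes like Fabp2 the 5 with the highest Pearson r. Alternatives were the unconverted values, other filters, repeated quantile normalization, a variance trend, 2-group fits, a replicate block, and fits without single livers or without C replicates 1 and 4. Matching by replicate number was checked through the correlation of deviations from group means.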

Additional observations from a re-analysis of the deposited data

Results flagged for a closer look

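In 8 of 123 groups of 4 livers tested, over 8 member probes and 33 named pathway probes, a single liver stood far from its 3 littermates, where chance gives about 1 in 20 groups. Fabp2 was 2.84 in C replicate 4, against 3.36 to 3.43 in the other C livers. Lpl was 6.6 in MLP replicate 1, against 5.63 to 5.79 in its littermates, at the very edge of the criterion. Fabp3 was 1.16 in MLP-F replicate 2, against 0.184 to 0.267, and Cpt2 was 5.59 in MLP-F replicate 3, against 5.15 to 5.2. Acsl3 was 1.67 in MLP replicate 3, against 1.41 to 1.44, and Acbd4 was 0.351 in MLP replicate 2, against 0.521 to 0.541. Acsl1 was 5.21 in C replicate 3, against 5.77 to 5.83, and Cyp4a1 was 1.33 in C replicate 1, against 1.8 to 1.89.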

How the results depend on the processing

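Of the 8 genes, limma called 2 in MLP vs C. This count was 1 with no filter on mean level, 3 with the filter at the 50th percentile, 3 with a variance trend, 4 in a fit of the 2 groups alone and 0 without C replicates 1 and 4, and 0 to 4 with 1 liver left out. It was 0 without MLP replicate 3 and 4 without MLP-F replicate 3. Fabp1 and Fabp7 were among the 4 there and in the fit of the 2 groups alone. In MLP-F vs C the count was 0 under each alternative run. In MLP-F vs MLP it was 1, and 1 to 5 with 1 liver left out, with 5 only without MLP-F replicate 3. Same-numbered livers had deviations that correlated at -0.217 to 0.143, so the numbers do not pair the livers. With the replicate number as a block, 2 genes were called in MLP vs C (Fabp7 in place of Slc27a5), 0 in MLP-F vs C and 1 in MLP-F vs MLP, and over all probes 562, 29 and 912 were called, against 685, 76 and 1037 without it. With 1 liver left out these counts over all probes ran from 335 to 814, from 1 (without MLP-F replicate 3) to 940 (without MLP-F replicate 2) and from 619 to 1355. In MLP-F vs C they were 37 with no filter, 43 with a variance trend, 6 with 2 groups alone and 14 without C replicates 1 and 4, which gave 211 in MLP vs C.

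Differences that turned their sign were small and not called, and the cause was not tested. In MLP-F vs C, over the fits with 1 liver left out, Fabp1 ran from -0.35 to 0.097 (without MLP-F replicate 3), Fabp2 from -0.20 (without MLP-F replicate 2) to 0.34, Fabp4 from -0.0062 (without MLP-F replicate 4) to 0.24, and Cd36 from -0.12 to 0.10 (without MLP-F replicate 3; also 0.015 without C replicate 4). Dbi ran from -0.055 to 0.040 (without MLP-F replicate 3; also 0.0075 without C replicate 2), Lpl from -0.42 to 0.029 (without MLP-F replicate 2), Acbd6 from -0.039 (without MLP-F replicate 3) to 0.26 and Acbd4 from -0.0011 (without MLP-F replicate 1) to 0.18. Without C replicates 1 and 4 Lpl was 0.024. In MLP-F vs MLP Slc27a5 ran from -0.39 to 0.031 (without MLP-F replicate 4). The number of arrays limits small differences in dim probes.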
